A study of Mus musculus with 2 samples.

Results

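The splice junctions described here lie in the part of mouse chromosome 17 that holds the H2-D, H2-Q and H2-T genes, the distal major histocompatibility complex. All junctions of the 2 deposited lists with both ends between positions 35390000 and 37400000 of the mm9 build were taken. These were 462 of 131057 junctions found in either library. RNA came from macrophages of male C57BL/6JJcl mice, collected from the peritoneal exudate 3 days after thioglycolate and left to adhere for 24 h. One library was from cells given IL-10, an anti-inflammatory cytokine, at 100 ng/ml for 4 h, and the other from untreated cells. Mouse age and the number of animals behind each library are not given in the sources used here. The label text on treatment is the same for both samples, so the groups rest on the sample titles. Each group is 1 library, so there is no replicate check, and every difference below is between these libraries and not shown for the condition. In such bulk samples, fewer cells of a type and less RNA per cell cannot be told apart.

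MHC class I molecules are cell-surface proteins made of a heavy chain, beta-2 microglobulin and a short peptide, which they show to CD8 T cells and natural killer cells. In C57BL/6 mice the classical heavy chains come from H2-K1, which lies outside the window, and H2-D1, while the Q and T genes encode non-classical relatives and include many pseudogenes. These genes arose by repeated duplication, and some of their exons are nearly identical. A short read across a splice site can therefore match several of them, and an aligner can place its 2 ends in different genes. All values for single class I genes carry that uncertainty.

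The 2 lists hold 3998954 (IL-10) and 4035991 (untreated) junction reads in all, and the 2 libraries had insert sizes of 188 and 197 bp. Ratios below are IL-10 over untreated, after each count was divided by the library's reads on introns of named genes (3839920 and 3868668). The range after each ratio is an exact conditional binomial 95% interval (Clopper-Pearson), which covers counting error only. A gene or junction was called higher or lower where the 2 counts summed to 20 or more, the difference was 2-fold or larger (a ratio down to 0.5 for lower), and 1 lay outside the interval. Of 10 macrophage markers, 9 had enough reads and none was called, where 3.44% of all named genes were. The list had 74345 and 88111 reads. Cd14 had none, since naming needed 2 introns of a gene to match. The T and natural killer cell list had 4 and 0 reads, with 5 of 6 genes at 0. The neutrophil list had 231 and 221 reads, with 5 of 6 genes at 0, and the dendritic cell list 11 and 1, with 3 of 4 genes at 0. The rule of 2 matching introns held for every list, so a gene at 0 may still have reads that were not named. The fibroblast and mesothelial list had 752 and 736 reads with no gene at 0, and none of the 4 genes with enough reads was called. The part of such cells in the results below was not tested.

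The junctions of the window fell into 3 main classes, joining exons within 1 class I gene (98 junctions), within 1 other gene (242) or between 2 class I genes (84). A further 26 joined a class I gene to sequence outside class I genes and 12 were of none of these kinds. The untreated library had 388 of the 462 junctions and the IL-10 library 352, with 278 in both. Junctions seen in 1 library alone made up 39.8% of the window and 32.2% of the whole lists. Among junctions between class I genes that share was 57.1%, against 32.7% within class I genes and 30.2% within other genes. None of the junctions between class I genes is an annotated intron. Among junctions that are not annotated introns, the share was 55.6% within class I genes and 72.7% within other genes. No junction had only 1 end inside the window.

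The sequences around the class I splice sites show how alike the candidates for a read are. The first set gives the first 48 bases of exon 4, which encodes the immunoglobulin-like domain next to the membrane. It is shown because reads leaving exon 3 of H2-D1 were placed on exon 4 of each of these genes. Capitals mark bases that differ from H2-D1. Sequences are from GENCODE M21 transcripts, and the mm9 positions of the exons, all on the plus strand, follow from the deposited junctions and the annotated exon lengths.
H2-D1 (chr17:35402729-35403004): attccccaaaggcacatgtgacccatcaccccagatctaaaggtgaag
H2-Q1 (chr17:35460009-35460284): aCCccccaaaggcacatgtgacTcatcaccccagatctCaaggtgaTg
H2-Q2 (chr17:35481700-35481975): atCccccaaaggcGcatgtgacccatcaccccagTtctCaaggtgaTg
H2-Q7 (chr17:35579212-35579496): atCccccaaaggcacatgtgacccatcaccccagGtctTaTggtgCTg
H2-Q10 (chr17:35610028-35610303): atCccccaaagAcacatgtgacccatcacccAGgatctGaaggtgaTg

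Over these 48 bases H2-Q1 and H2-Q2 differ from H2-D1 at 5 positions each, and H2-Q7 and H2-Q10 at 6. Over 276 bases of exon 4, H2-Q1 is 97.8% identical to H2-D1 (6 differences), H2-Q7 and H2-Q10 are 96.4% identical (10 differences each) and H2-Q2 is 93.8% identical (17 differences). The second set gives the last 40 bases of the corresponding exon in the T region, on the minus strand. It is shown because 1 acceptor in H2-T23 was joined to all of these donors, and capitals mark differences from H2-T23.
H2-T23 (chr17:36167767-36168042): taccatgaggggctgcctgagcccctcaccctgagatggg
H2-Bl (chr17:36218187-36218462): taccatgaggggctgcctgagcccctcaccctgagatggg
H2-T-ps (chr17:36246805-36247080): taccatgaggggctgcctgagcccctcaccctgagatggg
H2-T10 (chr17:36256134-36256409): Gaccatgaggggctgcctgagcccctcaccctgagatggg
Gm7030 (chr17:36264554-36264829): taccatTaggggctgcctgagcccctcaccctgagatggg
Gm8909 (chr17:36302544-36302819): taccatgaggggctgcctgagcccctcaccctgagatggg

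H2-Bl, H2-T-ps and Gm8909 carry the same 40 bases as H2-T23, and counted back from the splice site they share 57 bases with it. H2-T10 shares 39 and Gm7030 shares 33. The last 26 bases occur in transcripts of 12 class I genes of the window, H2-D1 and several Q genes included.

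The window held 13130 (IL-10) and 16896 (untreated) junction reads, a ratio of 0.783 (0.765 to 0.801). Junctions within class I genes had 4652 and 5848 reads, a ratio of 0.801 (0.771 to 0.833). Junctions within other genes had 4176 and 3837 reads, a ratio of 1.10 (1.05 to 1.15), on the other side of 1. Junctions between class I genes had 3782 and 6641 reads, a ratio of 0.574 (0.551 to 0.597), and held 28.8% (IL-10) and 39.3% (untreated) of the window's reads.

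The ratio of the class between genes depended on strand. The 67 junctions on the strand of the genes had 3698 and 3010 reads, a ratio of 1.24 (1.18 to 1.30). The 17 junctions on the opposite strand had 84 and 3631 reads. Nearly all of the latter were in 2 junctions with the same count, 0 with IL-10 and 1764 in the untreated library. Without these 2, the opposite strand had 84 and 103 reads, a ratio of 0.822 (0.608 to 1.11), and the whole class had 3782 and 3113 reads, a ratio of 1.22 (1.17 to 1.28). With 1 of the 2 kept, the class ratio was 0.781 (0.749 to 0.815). The direction for reads between class I genes thus turned on 2 of 84 junctions.

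**Figure D1:**
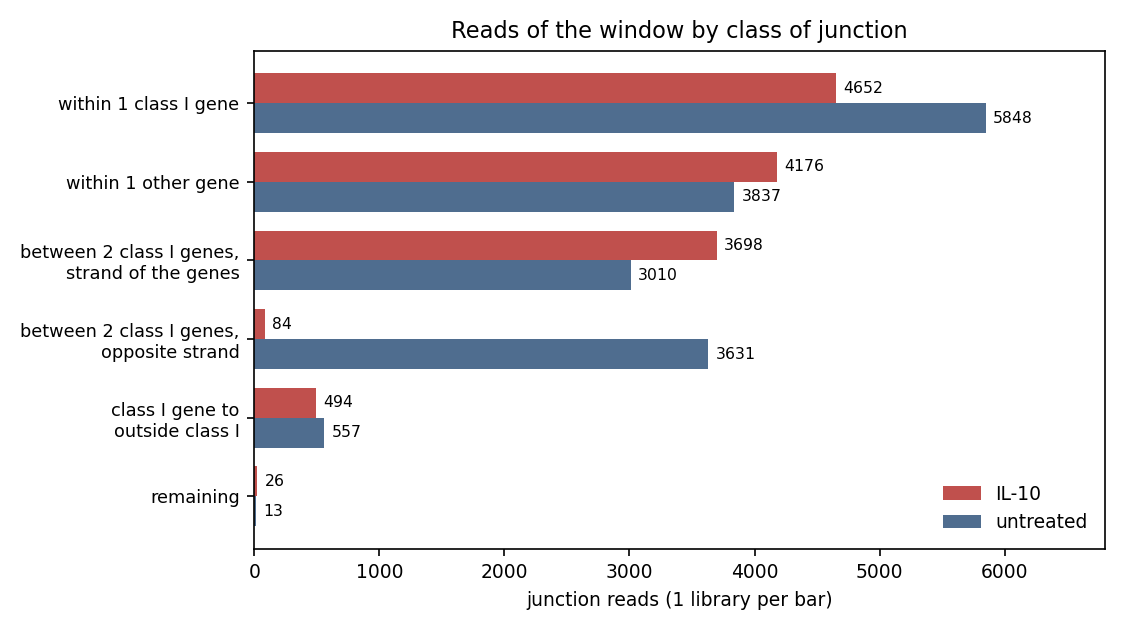
Junction reads of the window (x axis, linear) by class of junction (y axis), 1 bar per library. The opposite-strand class between class I genes stands at 84 (IL-10) and 3631 (untreated) reads, while the other classes with over 100 reads differ far less.

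H2-D1, the classical heavy chain gene of the window, held most reads within class I genes. It had 3324 reads (IL-10) and 4149 reads (untreated) over 22 junctions, 8 of them annotated introns, and a ratio of 0.807 (0.771 to 0.845). The introns did not share 1 ratio. Its 7 annotated introns with over 100 reads had ratios, in 5′ to 3′ order, of 0.618 (0.541 to 0.705), 0.710 (0.633 to 0.795), 1.01 (0.906 to 1.13), 0.749 (0.599 to 0.936), 1.05 (0.886 to 1.24), 0.752 (0.652 to 0.866) and 0.841 (0.772 to 0.916). The intervals of the first 2 lie below those of the introns with ratios of 1.01 and 1.05, with no steady order along the gene. The eighth annotated intron had 15 and 13 reads.

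The last donor of H2-D1, at chr17:35403672, carried the most reads of the window. Its own junction to the last H2-D1 exon (chr17:35403672-35403810) had 980 and 1174 reads. The junction from the same donor to the last exon of H2-Q7 (chr17:35403672-35580293), a gene for the Qa-2 antigen, had 2766 and 1810 reads, a ratio of 1.54 (1.45 to 1.63). That junction alone held 73.1% of the IL-10 library's reads between class I genes, and had 2.82 times as many reads there as the largest junction within a class I gene. Its blocks, the longest stretches aligned on the left and right of the junction, were 57 and 77 bases with IL-10 and 45 and 75 bases without. The first 77 bases of the last exons of H2-D1 and H2-Q7 differ at 3 positions, so both candidate exons for these reads are close in sequence. The acceptor in H2-Q7 took 6 of 2778 and 10 of 1826 reads from H2-Q7 itself.

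The 2 opposite-strand junctions of 1764 reads joined the same places in the untreated library. One ran from the H2-D1 donor to H2-Q2 (chr17:35403672-35482788, blocks 52 and 15 bases) and the other from H2-Q2 to H2-Q7 (chr17:35482804-35580308, blocks 15 and 67 bases). Only 15 bases separate them, and the H2-Q7 end lies 15 bases further in than that of the plus-strand junction. The first 20 bases of the last exons of H2-Q2 and H2-Q7 are the same. The counts of the pair are equal, and the 15-base block of each junction fills the stretch between them. Whether the same reads were counted at both was not tested. The 2 counts sum to 3528, which is 20.9% of the untreated library's reads in the window and 53.1% of its reads between class I genes. A read that crossed both junctions enters this sum and these shares 2 times. With a floor of 3 reads, each junction was at least 584-fold lower in the IL-10 library.

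A junction with at least 20 reads and none in the other library was rare, at 95 of 44255 junctions in the whole lists (0.215%). Of junctions found in 1 library alone, 9 had at least 100 reads, and 2 of these were this pair. They held the highest count of all such junctions, and the next outside the window had 531 reads. When 1764 reads were added to the plus-strand junction, the way from the H2-D1 donor to H2-Q7 had 2766 and 3574 reads, a ratio of 0.780 (0.742 to 0.820). The acceptors inside H2-D1 had 987 and 1203 reads, a ratio of 0.827 (0.759 to 0.900), and both sums together 3753 and 4777 reads, a ratio of 0.792 (0.758 to 0.826). On that sum the share joined to H2-D1's own last exons was 26.3% (24.9 to 27.7) and 25.2% (24.0 to 26.4), intervals that overlap. On the plus-strand junctions alone it was 26.3% (24.9 to 27.7) and 39.9% (38.2 to 41.7), intervals that do not.

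**Figure D2:**
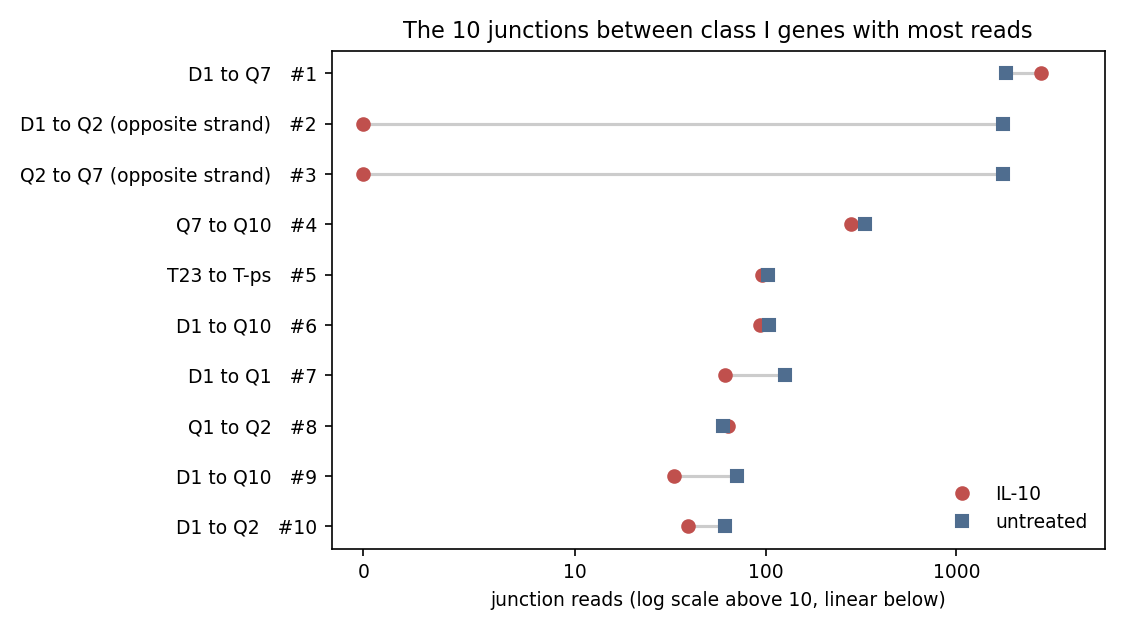
Reads (x axis, log scale above 10 and linear below) in the IL-10 library (circles) and the untreated library (squares) for the 10 junctions between class I genes with most reads, ranked from the top and named by the gene at the lower and then the higher coordinate. The junctions in ranks 2 and 3 are at 0 and 1764 reads, and the one in rank 1 at 2766 and 1810.

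The 10 junctions between class I genes with most reads held 90.7% (IL-10) and 93.3% (untreated) of the reads of that class. Besides the 3 above, 5 of the other 7 started in H2-D1 or ended in H2-Q10, whose own product is a secreted class I molecule of the liver. H2-Q7 to H2-Q10 (chr17:35580343-35611134) had 281 and 331 reads, a ratio of 0.855 (0.727 to 1.01). H2-D1 to the same H2-Q10 acceptor (chr17:35403860-35611134) had 93 and 104 reads, a ratio of 0.901 (0.674 to 1.20). No read joined that acceptor from within H2-Q10, and H2-Q10 had 6 and 3 reads within the gene against 423 and 523 between genes. Reads at H2-Q10 thus came almost wholly from junctions that begin in another gene.

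At the exon 3 donor of H2-D1, reads were spread over the exon 4 copies printed above. H2-D1's own exon 4 took 640 and 637 reads, H2-Q1 took 61 and 126, H2-Q2 took 39 and 61, H2-Q7 took 37 and 47, and H2-Q10 took 0 and 4. Own acceptors took 82.4% (79.6 to 85.0) of this donor's reads with IL-10 and 71.4% (68.4 to 74.4) without, and the intervals do not overlap. The H2-Q1 copy had a ratio of 0.488 (0.353 to 0.667), 2.05-fold lower, and was called. Its right blocks were 72 bases in both libraries, as long as those on H2-D1's own exon 4. The right blocks on the H2-Q2 copy were 47 bases in both, and on the H2-Q7 copy 47 and 42.

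The other called junctions between class I genes were H2-D1 to H2-Q10 at the donor of exon 2 (chr17:35400594-35607770) and H2-Q4 to H2-Q5 (chr17:35520029-35534237). The first had 33 and 71 reads, 2.14-fold lower in the IL-10 library, with a right block of 22 bases in both. The same donor was joined to H2-Q3 (chr17:35400594-35496651) by 13 and 0 reads, too few for a call, also with a right block of 22 bases. The own share of this donor was 91.9% (89.4 to 94.0) and 91.3% (89.1 to 93.1), intervals that overlap. Which gene these reads came from was not tested. The H2-Q4 to H2-Q5 junction had 21 and 0 reads, so that IL-10 was at least 7.05-fold higher against a floor of 3 reads. On the opposite strand, a junction of the same genes 7 bases further on (chr17:35520036-35534244) had 0 and 12 reads, the reverse pattern. Another (chr17:35520055-35534263) had 35 and 31. All of these H2-Q4 to H2-Q5 introns are 14209 bases long. Whether they are 1 junction placed at several positions and on either strand was not tested. In all, 1 junction between class I genes was called higher and 4 lower among 19 with enough reads. Over all junctions of the lists 5.03% were called (2.95% higher, 2.08% lower).

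Joined sequences were compared with whole transcripts for 45 of the 46 between-gene junctions that have both ends at annotated exon ends. From each, 45 bases on either side were joined to 90 bases. These were set against transcripts of single genes, either class I genes of the window or any annotated gene with an H2 symbol, H2-K1 included. The joined sequence had no difference from some single transcript for 10 junctions, 1 or 2 differences for 15 and more for 20, with a median of 2 and a maximum of 7. The 10 held 35 of 3264 reads (IL-10) and 72 of 2528 (untreated). The H2-D1 to H2-Q7 junction of most reads differed from a plain H2-D1 transcript at 2 positions, and from H2-Q7 at 32. The H2-D1 exon 3 to H2-Q1 exon 4 sequence differed from H2-D1 at 4 positions and from H2-Q1 at 6. None of the 45 was within 2 differences of H2-K1.

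In the T region, junctions between genes had 233 and 325 reads over 29 junctions, a ratio of 0.722 (0.608 to 0.857). None of the 5 with enough reads was called, where 5.03% of all junctions of the lists were. H2-T23 encodes Qa-1b, which presents leader peptides of other class I chains to the CD94/NKG2A receptor. One H2-T23 acceptor (chr17:36167640) was joined to 9 donors, and counts repeated among them. The own donor (chr17:36167640-36167766) had 12 and 29 reads with donor-side blocks of 53 bases. H2-Bl, H2-T-ps and Gm8909, which share 57 bases with it, each had 5 and 14 reads, with blocks of 26 bases (IL-10) and 53 bases (untreated). H2-T10, Gm7030, H2-T22 and 2 donors outside class I genes each had 5 and 10 reads, with blocks of 26 bases in both libraries for the 3 named genes. The longer untreated blocks thus occur at the donors whose printed 40 bases equal those of H2-T23. Whether the same reads were counted at several donors was not tested. Summed over the 9 junctions the acceptor had 52 and 121 reads, a ratio of 0.433 (0.307 to 0.604), and its own share was 23.1% (12.5 to 36.8) and 24.0% (16.7 to 32.6). A read counted at several donors enters these sums, and the T region sum above, several times. The own share would then depend on how many donors are listed. The intervals take every count as a separate read and would then be too narrow.

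The pseudogene H2-T-ps shared other sites with H2-T23. The last acceptor of H2-T23 was joined to a donor in H2-T-ps (chr17:36167177-36246354) by 96 and 103 reads, beside 210 and 258 for the annotated H2-T23 intron (chr17:36167177-36167315). An acceptor 4 bases away (chr17:36167173) had its own junctions at 29 of 29 reads with IL-10, 100% (88.1 to 100), and at 67.5% (50.9 to 81.4) of 40 reads in the untreated library, the rest being 13 reads from H2-T-ps. The junctions of this acceptor to H2-T23 (chr17:36167173-36167311) and H2-T-ps (chr17:36167173-36246350) have both ends 4 bases below those given above. At chr17:36167177 the own share was 68.7% (63.2 to 73.9) and 71.7% (66.8 to 76.3), intervals that overlap. Whether the 2 placements are 1 splice site was not tested. Counted by itself, chr17:36167173 was the third site at which the intervals of the own share did not overlap between libraries. The others were the exon 3 donor and the last donor of H2-D1. Of 31 sites with several junctions, at least 1 of them leaving the gene, and at least 20 reads in each library, 24 had a junction within their own gene, and at the other 21 of these the intervals overlapped.

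Within-gene reads of the class I genes were mostly lower in the IL-10 library. Of 21 class I genes with any read, 15 had junctions inside the gene and 12 had at least 20 reads. Of these 12, none was called higher and 1 was called lower (over all genes of the lists, 3.44% were called, 1.73% higher and 1.71% lower). The median log2 ratio was -0.34 over the 12 class I genes, -0.00 over all 8547 genes and 0.08 over the 21 other genes of the window. The interval lay below 1 for 5 genes, above 1 for Gm10499, and included 1 for 6.

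H2-Q7, which encodes the lipid-anchored Qa-2 antigen, was the gene called lower. It had 12 and 29 reads within the gene, a ratio of 0.417 (0.194 to 0.842), 2.40-fold lower, against 3102 and 3971 reads on junctions it shares with other genes. H2-T23 had 705 and 916 reads, a ratio of 0.775 (0.702 to 0.856). H2-T10, a ligand of some gamma-delta T cell receptors, had 134 and 222 reads, a ratio of 0.608 (0.487 to 0.757). H2-T-ps had 84 and 136 reads, a ratio of 0.622 (0.468 to 0.823). Together with H2-D1 these are the 5 whose interval lay below 1. Gm10499 had 75 and 44 reads, a ratio of 1.72 (1.17 to 2.55).

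For the other class I genes with enough reads the interval included 1. H2-T22, a close relative of H2-T10, had 148 and 163 reads and a ratio of 0.915 (0.727 to 1.15). H2-T24 had 42 and 62 reads, H2-Q4 had 41 and 28, H2-Q2 had 26 and 41, H2-Q1 had 26 and 21, and H2-Q6 had 23 and 26. The ratio ranged from 0.639 (0.375 to 1.07) for H2-Q2 to 1.48 (0.891 to 2.48) for H2-Q4. H2-Q5 had 6 and 4 reads within the gene, and Gm8810 had 0 and 4. Gm11127, Gm7030, Gm8909, Gm9574, H2-Bl and H2-Q3 had no reads within the gene. On junctions shared with another class I gene they had at most 26 and 30 reads (Gm8909). Gm7030 also had 86 and 88 reads on a junction to Gm19684, outside class I genes (chr17:36264830-36266387), a ratio of 0.985 (0.723 to 1.34). No junction read fell on H2-T3 or on an H2-M gene of the window.

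**Figure D3:**
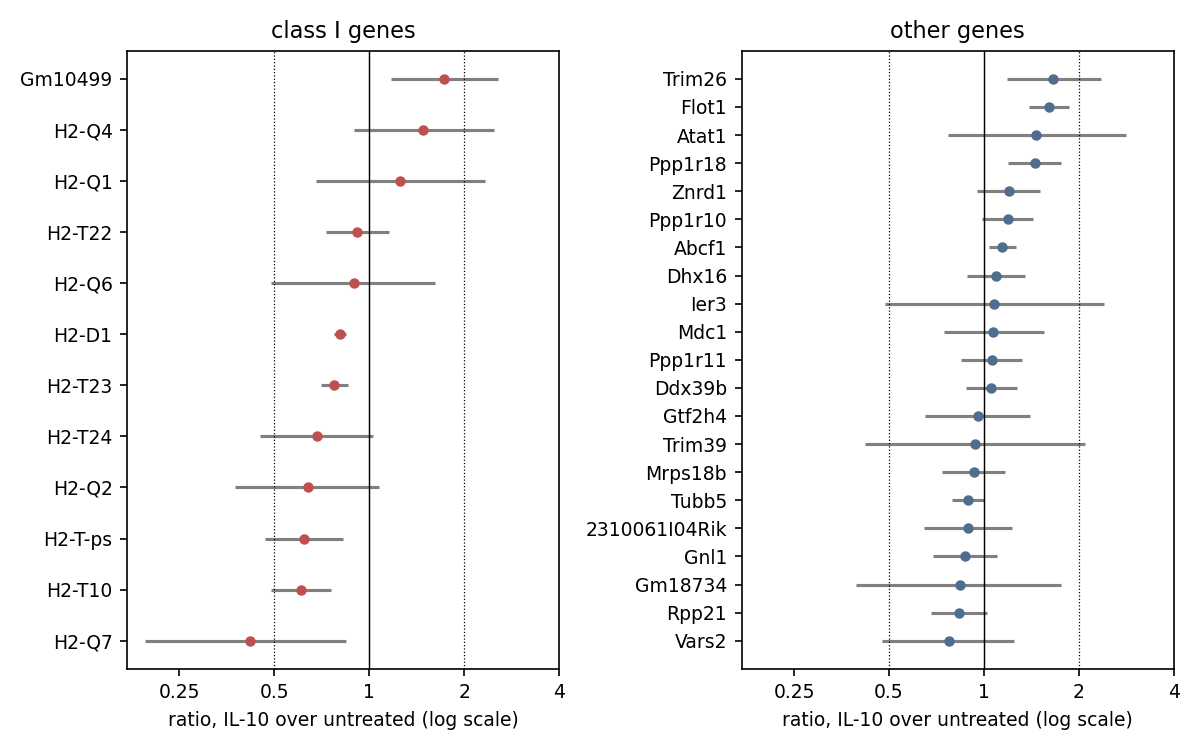
Ratio of IL-10 over untreated junction reads (x axis, log scale; dotted lines at 0.5 and 2) with its 95% counting interval for the 12 class I genes (left) and 21 other genes (right) of the window with at least 20 reads, 1 library per group. Of the class I genes 9 lie below 1 and 3 above; Flot1, Trim26, Ppp1r18 and Abcf1 have intervals above 1 on the right.

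Of 38 junctions within class I genes with enough reads, 1 was called higher and 5 lower, 15.8% against 5.03% over all junctions and 4.92% over annotated introns alone. In D and Q genes 1 of 13 was called, a junction of H2-D1 to an unannotated acceptor (chr17:35403672-35403783) with 5 and 17 reads, 3.37-fold lower. The other 5 of these calls were among the 25 junctions of T genes. The H2-T23 intron chr17:36167640-36167766 had the 12 and 29 reads given above and was 2.40-fold lower.

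The remaining 4 calls were in H2-T22 and H2-T10, and 2 of them went opposite ways at matching introns. In H2-T22 the intron of 182 bases (chr17:36178631-36178812) had 5 and 37 reads, 7.35-fold lower in the IL-10 library. In H2-T10 the intron of the same length (chr17:36257378-36257559) had 23 and 3 reads, a ratio of 7.72 (2.33 to 40.2). Over 164 exon bases around this intron the 2 genes differ at 1 position. Summed over both genes the intron had 28 and 40 reads, a ratio of 0.705 (0.419 to 1.17), an interval that includes 1.

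H2-T22 and H2-T10 have 5 introns of equal length, and their sums were compared after the values of single introns had been seen. The 5 together had 49 and 77 reads in H2-T22, a ratio of 0.641 (0.439 to 0.929), and 68 and 109 in H2-T10, a ratio of 0.629 (0.457 to 0.859). Over both genes the ratio was 0.634 (0.499 to 0.803). The other H2-T10 calls were the intron of 208 bases (chr17:36254402-36254609), with 7 and 19 reads and 2.69-fold lower, and that of 109 bases (chr17:36258129-36258237), with 15 and 48 reads and 3.18-fold lower. Compared position by position without gaps, the genes differ at 2 and 3 of 164 exon bases around these introns. Around the intron of 118 bases they differ at 34, though they share the 34 bases directly before it and the 78 directly after it. Without gaps, a shift of position between the sequences would count as many differences, and this was not tested. Which gene a read came from was not tested.

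**Figure D4:**
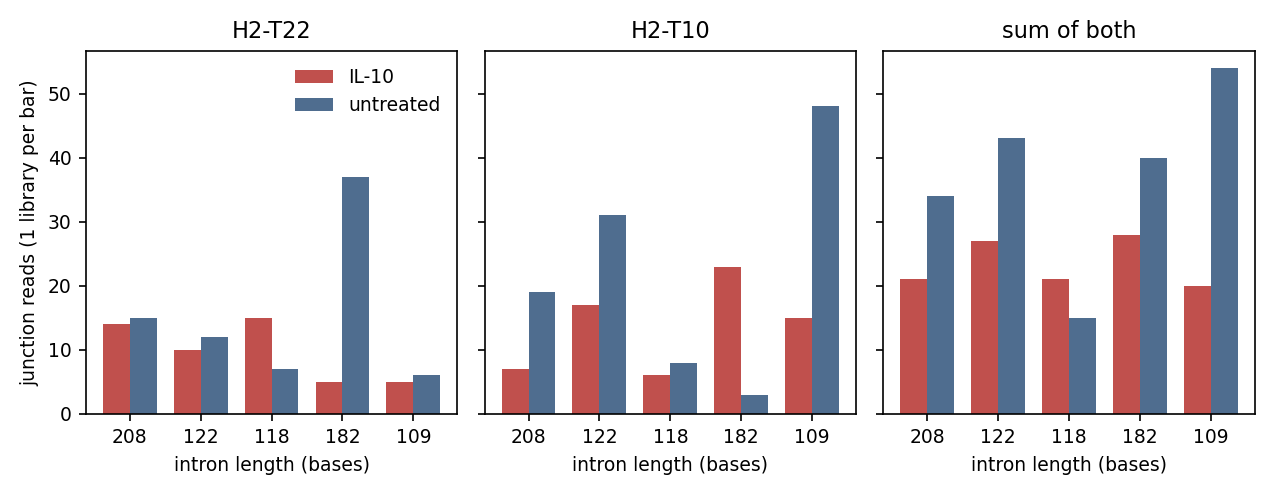
Junction reads (y axis, linear) for the 5 introns that have the same length in H2-T22 and H2-T10 (x axis, intron length in bases), in each gene and summed over both, 1 bar per library. The intron of 182 bases has 5 and 37 reads in H2-T22 and 23 and 3 in H2-T10, and 28 and 40 in the sum.

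Genes of the window outside class I had no gene called among 21 with enough reads (3.44% of all named genes were called). Flot1, a scaffold of membrane microdomains, had 480 and 301 reads, a ratio of 1.61 (1.39 to 1.86), with all 13 junctions of at least 5 reads on the same side of 1. Ppp1r18, an actin-binding partner of protein phosphatase 1, had 257 and 179 reads, a ratio of 1.45 (1.19 to 1.76). Trim26, a RING-type ubiquitin ligase, had 94 and 57 reads, a ratio of 1.66 (1.18 to 2.35). Abcf1, an ATP-binding cassette protein of translation, had the most reads, 960 and 845, a ratio of 1.14 (1.04 to 1.26). Tubb5, a beta-tubulin, was the only one whose interval lay below 1, with 574 and 650 reads and a ratio of 0.890 (0.794 to 0.997).

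The other 16 genes had intervals that included 1. The most reads among them were on Ppp1r10, a nuclear regulator of protein phosphatase 1 (256 and 217), and on Ddx39b, an RNA helicase of mRNA export that has only 2 junctions inside the window edge (245 and 234). The RNase P subunit Rpp21 had 185 and 224 reads, the splicing helicase Dhx16 had 185 and 171, the phosphatase inhibitor Ppp1r11 had 169 and 161, and the RNA polymerase I subunit Znrd1 had 168 and 141. Gnl1, a GTP-binding protein, had 139 and 161 reads, and Mrps18b of the mitochondrial ribosome had 142 and 154. 2310061I04Rik had 76 and 86, and the DNA damage mediator Mdc1 had 65 and 61.

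Single junctions of these genes were called at 4.65%, 4 of 86, near the 5.03% of all junctions. In Flot1 the intron chr17:35960447-35960751 had 18 and 4 reads, 4.53-fold higher. In Ppp1r18 the intron chr17:36003174-36004174 had 44 and 15 reads, 2.96-fold higher, and in Abcf1 the intron chr17:36095187-36095269 had 24 and 9 reads, 2.69-fold higher. In Dhx16 the intron chr17:36018468-36018574 had 9 and 21 reads, 2.32-fold lower. Of the 242 junctions, 220 were annotated introns, and the 6 on the strand opposite to their gene had 11 and 10 reads in all.

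Junctions from a class I gene to sequence outside class I genes had 494 and 557 reads, a ratio of 0.894 (0.790 to 1.01). Of these, 388 and 412 reads were on 1 junction from H2-Q4 to a place past the annotated end of H2-Q5 (chr17:35520736-35535095). Its left block was 14 bases and its right block 82 in both libraries. Without it the class had 106 and 145 reads.

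Block lengths separated the classes more than the libraries. Counting every junction with a read, the shorter block had a median of 44.5 bases (IL-10) and 42.5 (untreated) within class I genes, 53.0 and 52.0 within other genes, and 26.0 and 26.0 between class I genes. The shorter block reached 20 bases at 98.7% and 94.3% of junctions within class I genes. Between class I genes it did so at 88.0% (75.7 to 95.5) with IL-10 and 74.3% (62.4 to 84.0) without, intervals that overlap. Across the window blocks ranged from 8 to 82 bases.

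The libraries gave similar blocks where reads were many. Among the 20 junctions within class I genes with at least 20 reads in each library, the shorter block had medians of 67.0 and 68.5 bases. It was equal in both libraries at 9 and within 5 bases at 17. It differed by at least 20 bases at 2, the H2-D1 intron chr17:35400132-35400323 (50 against 73 bases, with 368 and 600 reads) and the H2-T23 intron chr17:36167177-36167315 (66 against 37 bases). The 13 such junctions between class I genes had medians of 37.0 and 42.0 bases.

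**Figure D5:**
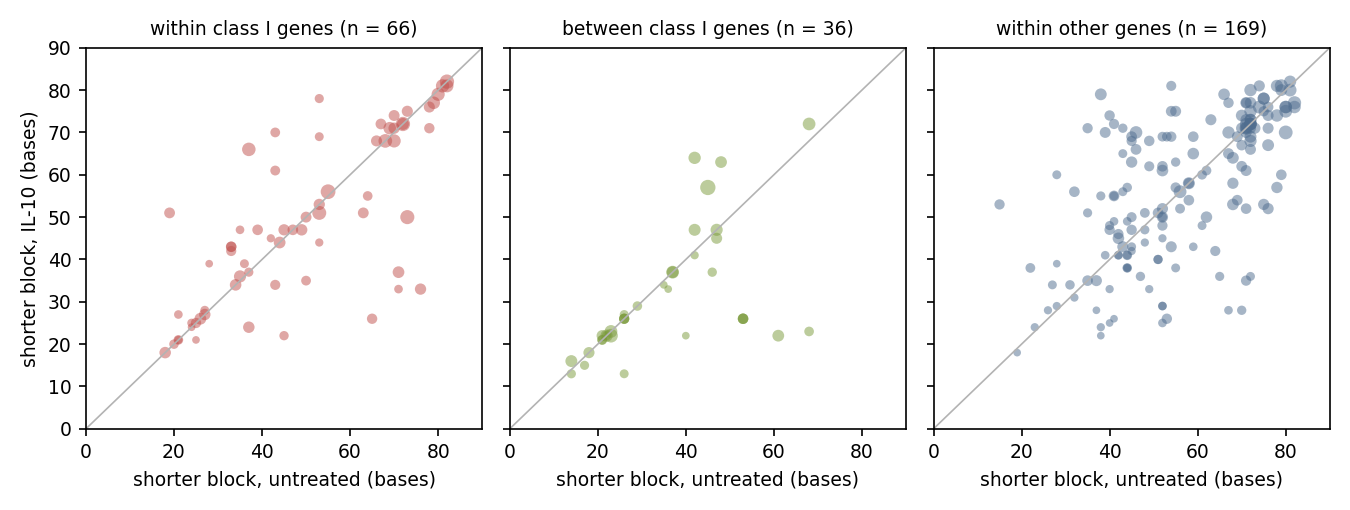
Shorter of the 2 blocks of each junction (bases) in the untreated library (x axis) and the IL-10 library (y axis), for junctions with reads in both, by class; larger points have more reads and the grey line marks equal lengths. The 36 junctions between class I genes sit mostly lower than the 66 within class I genes and the 169 within other genes.

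Genes for loading class I molecules were given beside the window's genes because a heavy chain reaches the surface only with beta-2 microglobulin and peptide. Of 16 listed genes 15 had enough reads, with a median log2 ratio of 0.01. Over all named genes 3.44% were called, 1.73% higher. Of the 15 listed, 1 was called higher and none lower. The gene called was Nlrc5, a transactivator of class I genes, with 150 and 45 reads and a ratio of 3.36 (2.39 to 4.80). B2m, which encodes beta-2 microglobulin, had 5448 and 6092 reads, a ratio of 0.901 (0.868 to 0.935). The chaperones Calr (5790 and 5777 reads), Pdia3 (4035 and 4026) and Canx (2781 and 2787) each had a ratio of 1.01. H2-K1, the classical gene outside the window, had 1865 and 2307 reads, a ratio of 0.814 (0.766 to 0.866), beside the 0.807 of H2-D1.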

How the data were processed

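Junction reads of the 2 libraries were used; alignment to mm9 with TopHat and the use of Cufflinks are per the submitters' processing notes, without versions. Column 5 of the deposited lists holds an unscaled count of reads per junction, per the file headers and values, and column 11 holds 2 block lengths, the longest aligned stretch on each side. How reads with several matches were placed is not given in the sources used here.

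Genes were named from GENCODE M21 by exact intron length and 1 offset for the whole window, which 282 junctions of 43 genes share (the next offset has 3). Outside the window, at least 2 introns of a gene had to share an offset. Class I genes (50 of 164 annotated) were 28 by symbol and 22 by a same-strand blastn 2.17.0 match (at least 65% identity, 200 bases and 30% of the query). Log2 ratios used a pseudocount of 0.5. Python 3.11.15, numpy 2.4.6, scipy 1.17.1, pandas 2.3.3 and R 4.3.3 were used, and scaling by edgeR 4.0.16 and DESeq2 1.42.0 factors was tried. Calls were tested on simulated data. Members and lists were chosen with earlier results of these data known. Named were all class I genes with a read, the 15 other genes with most reads, everything called in the window, the 10 between-gene junctions with most reads, and of the loading list the called genes and the 4 with most reads. Other features named (further junctions at the sites shared with H2-D1 and H2-T23, H2-K1, marker genes) were chosen after their values were seen. The count interval was also computed at 99%. No count model was fitted, since each group has 1 library. One marker list is not reported here.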

Additional observations from a re-analysis of the deposited data

How the results depend on the processing

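No paired analysis was possible because each group has 1 library. TMM and DESeq2 scaling changed no call. Counts of calls moved with the rule; the main counts were 1 class I gene lower, 1 junction within class I genes higher and 5 lower, 3 junctions within other genes higher and 1 lower, and no other gene. With no minimum of reads, 2 junctions within class I genes were higher and 7 lower, and 11 within other genes were higher and 3 lower. With at least 50 reads, 0 class I genes were lower, 0 junctions within class I genes were higher and 1 lower, and 1 within other genes was higher and 0 lower. At 1.5-fold, 1 class I gene was higher and 3 lower, 2 junctions within class I genes were higher and 9 lower, 8 within other genes were higher and 3 lower, and 2 other genes were higher. At 3-fold, 0 class I genes were lower, 3 junctions within class I genes were lower, and 1 within other genes was higher and 0 lower. With a 99% interval, 0 class I genes, 2 junctions within class I genes and 0 within other genes were lower, and 2 within other genes were higher. H2-Q7 was thus no longer called at 3-fold, with at least 50 reads or at 99%. The share called over all genes or junctions is given here for the main rule only. The counts under the other settings therefore cannot be set against all features.

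The ratio of reads between class I genes, 0.574, turned to 1.24 with a shorter block of at least 20 bases, 1.30 with both ends at annotated exon ends, and 1.22 without the 2 junctions of equal reads, an alternative chosen after seeing the data. Each of these leaves out the pair with 0 and 1764 reads. The share of junctions between class I genes past the block minimum was 100% (IL-10) and 95.7% (untreated) at 10 bases, and 44.0% and 42.9% at 30 bases. Single values were followed for 43 features, the genes of the window with enough reads and the within-gene junctions called by the main rule. Over the other settings, 395 of their values stayed on their side of the rule, 12 lost a call and 5 gained one. A feature that a setting left out, such as H2-Q7 with at least 50 reads, is not in these counts. Calls gained by other junctions are not in them either. With 1 library a group, counting error is the only error known, and junctions under 20 reads entered the calls only where no minimum was set.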
